A study of Mus musculus with 4 samples.

Results

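Early T-lineage genes were read in lymphoid-primed multipotent progenitors (LMPPs), bone marrow progenitors that still make lymphoid and myeloid cells but have little megakaryocytic or erythroid potential. The genes were chosen by name, as Thy1, Tcf7, Lef1, Bcl11b, Cd3d, Cd3e, Cd3g, Ptcra, Lck and Il2ra. Every probe set whose single gene symbol was one of these names was taken. Of these 10 genes, 8 had a probe set, with 13 probe sets in all out of 45037, and 8 of the 18193 genes with a single-symbol probe set. Tcf7 and Lck had no probe set listed under their symbols and were not analysed here.

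The study compared LMPPs of Lyl1 KO mice with LMPPs of wild-type (WT) mice, 2 arrays per genotype. All mice were C57Bl/6 and between 6 and 8 weeks old, and the cells were not cultured. The KO mice carry a knockout allele of Lyl1, which encodes a DNA-binding protein of the basic helix-loop-helix class that acts in blood progenitors; the labels name no cell type to which the deletion is restricted. The cells were sorted as lineage-negative, c-Kit+, Sca-1+ and Flt3-high, and the labels do not say whether the 2 arrays of a genotype came from separate mice or pools. All p-values therefore measure only the spread between these arrays, which may be technical.

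T cells arise in the thymus from progenitors that arrive from the bone marrow. There, Notch1 signalling turns on the transcription factors Tcf7, Gata3 and Bcl11b, and these turn on the T-cell program, including the CD3 chains and the pre-T-cell receptor. LMPPs lie upstream of this step, and most genes of the program are switched on only later. Values below are log2 expression values made by RMA, a method that corrects background, equalises the arrays and summarises the probes of a probe set. Each step of 1 is a doubling. Differences are Lyl1 KO minus WT.

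**Figure D1:**
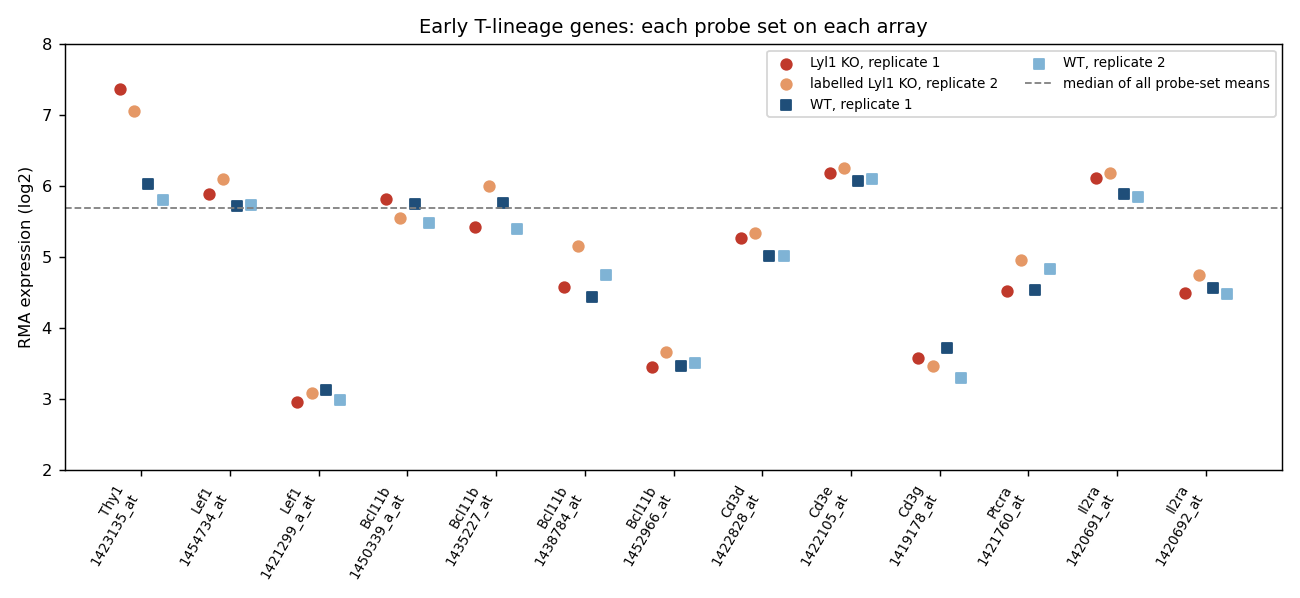
RMA expression (log2) of the 13 early T-lineage probe sets on each array, with the 2 libraries labelled Lyl1 KO as circles and the 2 WT libraries as squares. Thy1 lies above 7 in both libraries labelled Lyl1 KO and at 6.02 and 5.80 in WT, while the other probe sets stay close together or overlap, most of them below the dashed median of all probe-set means (5.69).

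One library went against its label. Lyl1 was at 5.14 in the library labelled Lyl1 KO replicate 1 and at 10.32 in the library labelled Lyl1 KO replicate 2, against 12.34 and 12.29 in WT, so the second library held 25.1% of the WT mean. That library also stood apart in the sex-linked transcript Xist, at 14.26 against 5.81 to 6.30 in the other 3, and in the Y-linked gene Eif2s3y, at 8.44 against 10.07 to 10.15. Both transcripts were thus present in it. Whether this library is what its label says was not settled by these values, so every Lyl1 KO mean and difference below rests in part on a library in doubt. Between it and each other library 1236 to 2222 probe sets differed at least 2-fold, against 108 to 324 between the other 3. Its distribution was narrower, with an SD of 2.34 over probe sets against 2.44 to 2.48. With 2 arrays a genotype, precision is limited by their number. The 8 measured sorting markers and genes of the gate, among them Flt3, Kit and Cd34, were above the median of all probe-set means on all 4 arrays. Of these, 6 had a negative difference, with Kit at 9.56 and 8.97 in the libraries labelled Lyl1 KO, against 10.07 and 10.27 in WT, and Flt3 at 11.80 and 11.26 in the libraries labelled Lyl1 KO, against 11.92 and 12.12 in WT. Ly6a, which encodes Sca-1, was not analysed here.

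The genes of the CD3 complex lie side by side, and their start regions are printed here. They were chosen because Cd3d and Cd3e read higher in both libraries labelled Lyl1 KO while Cd3g did not. None of these genes had an adjusted p under 0.05 in limma, and such a higher reading is common. Among the 26179 probe sets in the mean-level range of the early T-lineage probe sets, 36.8% read higher without overlap. Cd3g and Cd3d had means of 3.52 and 5.16, below the median of all probe-set means (5.69). On mouse chromosome 9 the order is Cd3g, Cd3d, Cd3e, with 0 protein-coding genes between neighbours, and Thy1 lies on the same chromosome with 35 protein-coding genes between it and Cd3g. Each sequence is the 250 bases before an annotated transcript start, 5′ to 3′ on the gene's strand, from RefSeq (GRCm38.p6). Capitals mark every CANNTG, the E-box that basic helix-loop-helix factors bind; the motif is its own reverse complement, so both strands are covered. The regions are chr9:44980432-44980681 on the minus strand for Cd3g, chr9:44981536-44981785 on the plus strand for Cd3d and chr9:45009612-45009861 on the minus strand for Cd3e.
Cd3g: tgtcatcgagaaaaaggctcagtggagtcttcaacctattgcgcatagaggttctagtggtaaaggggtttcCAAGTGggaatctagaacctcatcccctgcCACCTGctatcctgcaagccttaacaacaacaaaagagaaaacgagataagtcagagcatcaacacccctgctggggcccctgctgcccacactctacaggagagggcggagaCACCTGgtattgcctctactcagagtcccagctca
Cd3d: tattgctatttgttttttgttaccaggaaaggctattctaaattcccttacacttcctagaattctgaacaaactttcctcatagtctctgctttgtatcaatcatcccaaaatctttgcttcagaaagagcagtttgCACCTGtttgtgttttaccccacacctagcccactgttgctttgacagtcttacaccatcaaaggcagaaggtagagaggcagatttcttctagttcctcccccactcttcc
Cd3e: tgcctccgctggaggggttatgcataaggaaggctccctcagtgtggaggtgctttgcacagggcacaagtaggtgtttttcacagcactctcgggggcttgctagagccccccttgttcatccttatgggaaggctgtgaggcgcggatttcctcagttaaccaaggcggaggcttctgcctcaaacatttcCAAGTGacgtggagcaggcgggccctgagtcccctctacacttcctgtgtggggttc

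The Cd3g region holds 3 E-boxes, which begin 178, 148 and 35 bases before the start. Cd3d holds 1, at 112 bases, and Cd3e holds 1, at 57 bases. An E-box was found in 66.2% of 32851 promoter windows of the same length, so 1 match in a window is common. A second motif, CTTTGA, the core bound by Tcf7 and Lef1, was searched on both strands. It was found 2 times in the Cd3d window and not in those of Cd3g and Cd3e, and in 13.8% of all windows. Over the 14 windows found for 9 of the 10 genes, 10 held an E-box and 3 held CTTTGA. No window was found for Thy1. The count includes windows of Tcf7 and Lck, which have no readings here. The first and second Lef1 windows overlap and hold the same E-box. These matches describe letters only and say nothing of binding.

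Thy1, the GPI-anchored surface glycoprotein of T cells that is also present at a low level on some mouse blood stem cells, read higher in both libraries labelled Lyl1 KO. It was at 7.37 and 7.05 in the libraries labelled Lyl1 KO, against 6.02 and 5.80 in WT. The groups did not overlap, and the gap between them was larger than the spread within either. The mean was 7.21 ± 0.22 in the libraries labelled Lyl1 KO and 5.91 ± 0.16 in WT (SD, n = 2 each). The difference was 1.30 (SE 0.19), or 2.46-fold with a 95% interval from 1.79 to 3.38. It did not pass when adjusted over all 45037 probe sets (limma, adjusted p = 0.388), although its unadjusted p was the 57th smallest.

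Thy1 was higher in the library labelled Lyl1 KO replicate 1, where Lyl1 was lowest, by 1.46 over the WT mean, and in the library labelled Lyl1 KO replicate 2 by 1.14. Whether Thy1 follows the level of Lyl1 was not tested. With the library labelled Lyl1 KO replicate 2 left out, the adjusted p was 0.636 over all probe sets in limma. With the library labelled Lyl1 KO replicate 1 left out it was 0.0955. In further limma fits, added after the data had been seen, with 1 probe set per gene and only genes above the median of all probe-set means, the adjusted p was 0.0157 without the library labelled Lyl1 KO replicate 1 and 0.0541 without the library labelled Lyl1 KO replicate 2. In the first of these fits 3.94% of 11196 genes passed upward, and in the second 0.0893%. Each of these fits has a lone library labelled Lyl1 KO, which is assumed to vary like the WT pair. Over all alternatives the Thy1 difference lay between 1.14 and 1.46, with adjusted p between 0.0157 and 1.

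Of the 13 probe sets, 0 passed an adjusted p of 0.05 in limma, where 0.00444% of all probe sets passed. At an unadjusted p under 0.05 there was 1, Thy1, against 7.88% of all probe sets. The groups did not overlap at 5 probe sets, all higher in the libraries labelled Lyl1 KO, which is 38.5% of the 13. Among all probe sets that share was 27.3%, and among the 26179 probe sets in the same range of mean level it was 36.8%. The median difference was 0.13 over the 13 probe sets, 0.13 over the probe sets in that range and 0.05 over all probe sets.

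**Figure D2:**
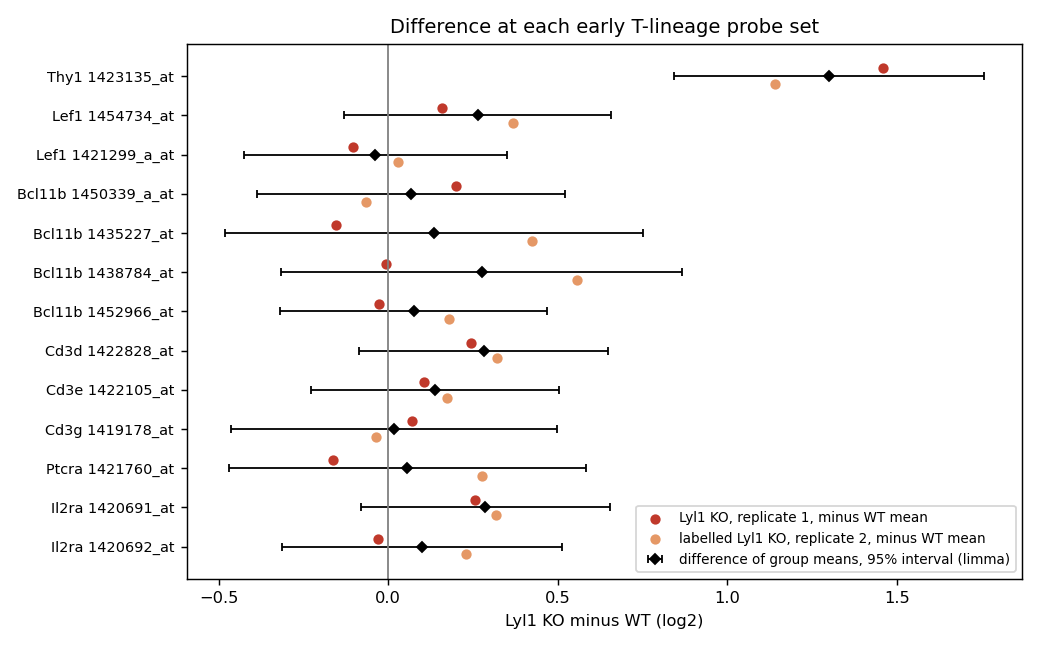
Difference (log2) at each of the 13 probe sets: black diamonds give Lyl1 KO minus WT with the 95% interval from limma, and coloured points give each library labelled Lyl1 KO minus the WT mean. The interval of Thy1, 0.84 to 1.76, lies above 0 and the other 12 intervals include 0.

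No transcription factor of the set passed the test. Lef1, the partner of Tcf7 in early T cells, was read by 2 probe sets. The leading one, with the highest mean (1454734_at), was at 5.88 and 6.09 in the libraries labelled Lyl1 KO, against 5.72 and 5.73 in WT. Its groups did not overlap, and the difference was 0.26 (SE 0.16, limma adjusted p = 0.588). The second (1421299_a_at) was at 2.95 and 3.09 in the libraries labelled Lyl1 KO, against 3.12 and 2.99 in WT, so it overlapped and differed by −0.04 (SE 0.16).

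Bcl11b, a zinc-finger factor that closes the alternative fates of early T cells, was read by 4 probe sets, all below the median of probe-set means. The leading one (1450339_a_at) was at 5.82 and 5.55 in the libraries labelled Lyl1 KO, against 5.75 and 5.48 in WT. Values of both groups interleave, and the difference was 0.07 (SE 0.18). Probe set 1435227_at was at 5.42 and 6.01 in the libraries labelled Lyl1 KO, against 5.77 and 5.40 in WT. Probe set 1438784_at was at 4.59 and 5.15 in the libraries labelled Lyl1 KO, against 4.44 and 4.74 in WT. At both of these the library labelled Lyl1 KO replicate 2 was the highest of the 4 arrays, and the library labelled Lyl1 KO replicate 1 lay between the WT values. The fourth (1452966_at) was at 3.46 and 3.66 in the libraries labelled Lyl1 KO, against 3.47 and 3.50 in WT. The 4 probe sets differed by 0.07 to 0.27, with limma adjusted p between 0.658 and 0.894.

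The CD3 chains carry the signal of the T-cell receptor into the cell. Cd3d was at 5.26 and 5.34 in the libraries labelled Lyl1 KO, against 5.02 and 5.02 in WT, a difference of 0.28 (SE 0.15, limma adjusted p = 0.581). Cd3e was at 6.19 and 6.25 in the libraries labelled Lyl1 KO, against 6.07 and 6.10 in WT, a difference of 0.14 (SE 0.15, limma adjusted p = 0.712). Both libraries labelled Lyl1 KO lay above both WT libraries for these genes, by 1.22-fold and 1.10-fold of the group means. Cd3g was at 3.58 and 3.47 in the libraries labelled Lyl1 KO, between the WT values of 3.72 and 3.30, with a difference of 0.02 (SE 0.19). The 3 chains of the complex, whose genes are neighbours, thus gave a higher reading at Cd3d and Cd3e and overlapping groups at Cd3g. None of the 3 passed, and whether they differ from each other was not tested.

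Ptcra encodes the invariant chain of the pre-T-cell receptor. It was at 4.52 and 4.96 in the libraries labelled Lyl1 KO, against 4.54 and 4.83 in WT. The libraries labelled Lyl1 KO gave both the lowest and the highest value, and the difference was 0.06 (SE 0.21, 95% interval −0.47 to 0.58).

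Il2ra, the alpha chain of the interleukin-2 receptor (CD25), marks the stages of thymocytes in which commitment takes place. Its leading probe set (1420691_at) was at 6.12 and 6.18 in the libraries labelled Lyl1 KO, against 5.89 and 5.84 in WT, a difference of 0.29 (SE 0.15, limma adjusted p = 0.581). The groups did not overlap there. The second (1420692_at) was at 4.49 and 4.75 in the libraries labelled Lyl1 KO, against 4.56 and 4.47 in WT, where the library labelled Lyl1 KO replicate 1 lay between the WT values. Its difference was 0.10 (SE 0.17).

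The differences were set beside those of all probe sets on the same side of the median, then of probe sets of like level. Of the 13, 9 had a mean below the median of all probe-set means, and 7 were below it on every array. These 9 had a median difference of 0.07, against 0.14 over all probe sets below that median. The 4 at or above it, those of Thy1, Lef1, Cd3e and Il2ra, had a median of 0.28, against −0.07 over all probe sets at or above it. That larger set is not of like level: its means reach 15.38, while the 4 lie between 5.86 and 6.56. By library, over all probe sets below that median, the median difference from the WT mean was 0.06 in the library labelled Lyl1 KO replicate 1 and 0.21 in the library labelled Lyl1 KO replicate 2. Over the 9 it was −0.03 and 0.23. At or above that median it was −0.02 and −0.10 over all probe sets, and 0.21 and 0.34 over the 4. In the bins of mean level that hold the 4 (5.5 to 6, 6 to 6.5 and 6.5 to 7), the medians over all probe sets were nearer to 0 or positive. They were 0.06, 0.02 and −0.02 in the library labelled Lyl1 KO replicate 1. In the library labelled Lyl1 KO replicate 2 they were 0.18, 0.08 and −0.08. In bins of 0.5 in mean level, 12 of the 13 lay between the 10th and 90th percentile of all probe sets of their bin, in each of the 2 libraries. Thy1 was the exception in both. The range from the 10th to the 90th percentile of its bin ran from −0.38 to 0.26 in the library labelled Lyl1 KO replicate 1 and from −0.79 to 0.52 in the library labelled Lyl1 KO replicate 2. Scaling bears on this: with quantile normalization, the differences of Cd3g, Ptcra, the second Il2ra probe set and 2 Bcl11b probe sets turned below 0. The second Lef1 probe set was below 0 in the reported fit (−0.04) and stayed so (−0.13). Those of Thy1 (1.34), the leading Il2ra probe set (0.25) and the leading Lef1 probe set (0.22) stayed above 0. So did Cd3d (0.17), Cd3e (0.13) and the other Bcl11b probe sets (0.07 and 0.14).

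**Figure D3:**
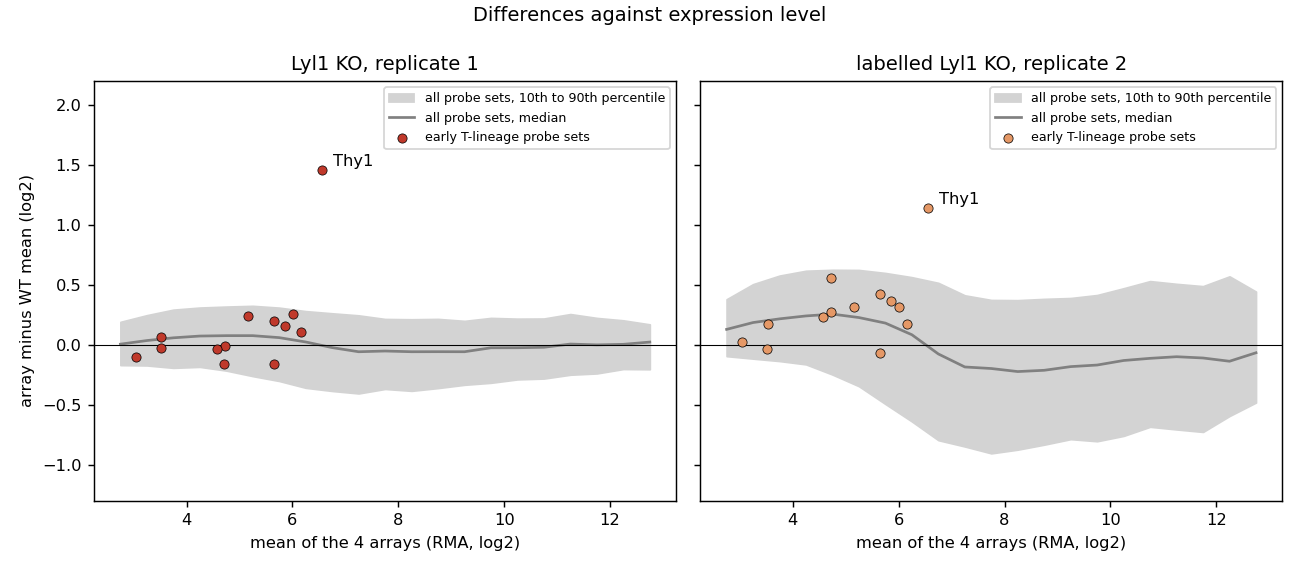
Each library labelled Lyl1 KO minus the WT mean (log2, vertical axis) against the mean of the 4 arrays (log2, horizontal axis). The grey line and band give the median and the 10th to 90th percentile of all probe sets in bins of 0.5. The 13 early T-lineage probe sets lie within the band in both libraries except Thy1, which is at 1.46 and 1.14.

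Other genes of the T-cell pathway were read from 3 lists, each gene by its leading probe set. In the list of Notch and T-cell specification genes, 0 of 24 passed over all probe sets in limma. At an unadjusted p under 0.05 there were 2, near the share of 7.88% over all probe sets. Both read lower: Notch1, the receptor that starts the program, was at 11.76 and 11.47 in the libraries labelled Lyl1 KO, against 12.06 and 12.24 in WT. The repressor Gfi1 was at 9.36 and 9.35 in the libraries labelled Lyl1 KO, against 10.24 and 9.84 in WT. Zbtb7b, a factor of CD4 T cells, followed with 7.08 and 7.01 in the libraries labelled Lyl1 KO, against 6.76 and 6.55 in WT. In the list, 11 genes were higher and 5 lower without overlap between the groups, against 28.4% and 16.6% of all genes. The median difference was 0.11.

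In the list of T-cell receptor signalling genes, 0 of 22 passed in limma and 2 had an unadjusted p under 0.05, beside 7.88% of all probe sets. The adaptor Lat was at 9.53 and 10.03 in the libraries labelled Lyl1 KO, against 9.25 and 9.24 in WT. The costimulatory receptor Cd28 was at 4.66 and 4.80 in the libraries labelled Lyl1 KO, against 4.34 and 4.34 in WT. The adaptor Grap2 was at 5.40 and 5.28 in the libraries labelled Lyl1 KO, against 5.06 and 4.77 in WT. Without overlap, 10 genes were higher and 2 lower, beside 28.4% and 16.6% of all genes, and the median difference was 0.17. Of the 22, 11 and 10 were above the median of all probe-set means in the libraries labelled Lyl1 KO, against 11 and 12 in WT.

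In the list of interleukin-2 and common gamma chain receptor genes, 0 of 10 passed in limma. Beside the 7.88% of all probe sets, 1 of these genes had an unadjusted p under 0.05. This was Il7r, the interleukin-7 receptor of lymphoid progenitors, at 10.25 and 10.03 in the libraries labelled Lyl1 KO, against 9.37 and 9.62 in WT. The signal transducer Stat5b was at 9.31 and 8.13 in the libraries labelled Lyl1 KO, against 9.46 and 9.71 in WT. Il21r was at 8.13 and 7.69 in the libraries labelled Lyl1 KO, against 8.35 and 8.22 in WT. The median difference was −0.15, with 4 genes positive and 6 negative.

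Markers of other cells that a sort could hold were read beside these values. Over 15 markers of mature and thymic T cells, the summed linear level was 2280 and 2462 in the libraries labelled Lyl1 KO, against 1993 and 2159 in WT. Lat, the highest of them on every array, was at 9.53 and 10.03 in the libraries labelled Lyl1 KO, against 9.25 and 9.24 in WT. It has the largest part in each sum. Of the 15, 11 had a positive difference. The coreceptor gene Cd8a was at 5.90 and 6.47 in the libraries labelled Lyl1 KO, against 5.72 and 5.75 in WT. Cd8b1 overlapped, at 3.80 and 3.56 in the libraries labelled Lyl1 KO, against 3.38 and 3.63 in WT. Cd8b1, Cd2, Cd5, Cd6, Cd28, Trat1, Themis and Ms4a4b had means below the median of all probe-set means. Ms4a4b, a membrane protein of mature T cells, was at 4.44 and 4.69 in the libraries labelled Lyl1 KO, against 5.71 and 5.87 in WT, the opposite direction to Thy1. Over 12 markers of NK and innate lymphoid cells the sum was 3846 and 3347 in the libraries labelled Lyl1 KO, against 3137 and 3047 in WT, with 9 positive and 3 negative differences. Nkg7 was at 11.66 and 11.42 in the libraries labelled Lyl1 KO, against 11.24 and 11.18 in WT. It makes up most of each sum, so the sums mostly follow that gene. Klrd1, an NK receptor and 1 of the 3 negative, was at 6.17 and 6.26 in the libraries labelled Lyl1 KO, against 6.98 and 6.96 in WT. Gzma had the smallest unadjusted p of the 9 positive, with a mean below the median of all probe-set means. It was at 4.64 and 4.68 in the libraries labelled Lyl1 KO, against 4.13 and 4.17 in WT.

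Markers of neutrophils and monocytes differed in both directions, and none passed. Ngp was at 8.87 and 8.73 in the libraries labelled Lyl1 KO, against 7.05 and 6.55 in WT, and S100a8 was at 8.06 and 7.82 in the libraries labelled Lyl1 KO, against 6.48 and 6.12 in WT. Ltf was at 6.77 and 6.19 in the libraries labelled Lyl1 KO, against 4.93 and 5.10 in WT. The granule genes Mpo and Ctsg read lower without overlap, by −1.01 and −0.53, and Prtn3 and Elane overlapped, at −0.11 and −0.02. In the whole list of 12 neutrophil and monocyte markers 7 differences were positive and 5 negative, and the summed level was 14987 and 11546 in the libraries labelled Lyl1 KO, against 15496 and 16014 in WT. Prtn3, Mpo and Ctsg had the highest levels of that list on every array and make up most of each sum. Over 10 blood stem cell markers, which matter beside Thy1 since some stem cells carry it, the sum was 6110 and 6945 in the libraries labelled Lyl1 KO, against 9175 and 8101 in WT, with 7 positive and 3 negative differences and a median of 0.12. Meis1 (−0.75) and Hlf (−0.62) read lower without overlap, and Hoxb5 (0.68), Procr (0.46) and Fgd5 (0.40) higher. Hlf and Meis1 had the highest levels of the stem cell list on every array, so the sums mostly follow these genes. Positive differences were found at 8 of 9 B-cell markers, 5 of 8 markers of dendritic cells and macrophages, 3 of 10 megakaryocytic and erythroid markers and 5 of 9 stromal and endothelial markers, with medians of 0.16, 0.02, −0.07 and 0.04. Over all genes, 58.2% of differences were positive. In every one of these lists 0 genes passed in limma, and between 0 (stroma) and 8 (neutrophils and monocytes) had an unadjusted p under 0.05. Over all probe sets 7.88% had such a p. The part of any of these cells in the Thy1 reading was not tested. In bulk samples, fewer cells of a type and less RNA per cell cannot be told apart.

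**Figure D4:**
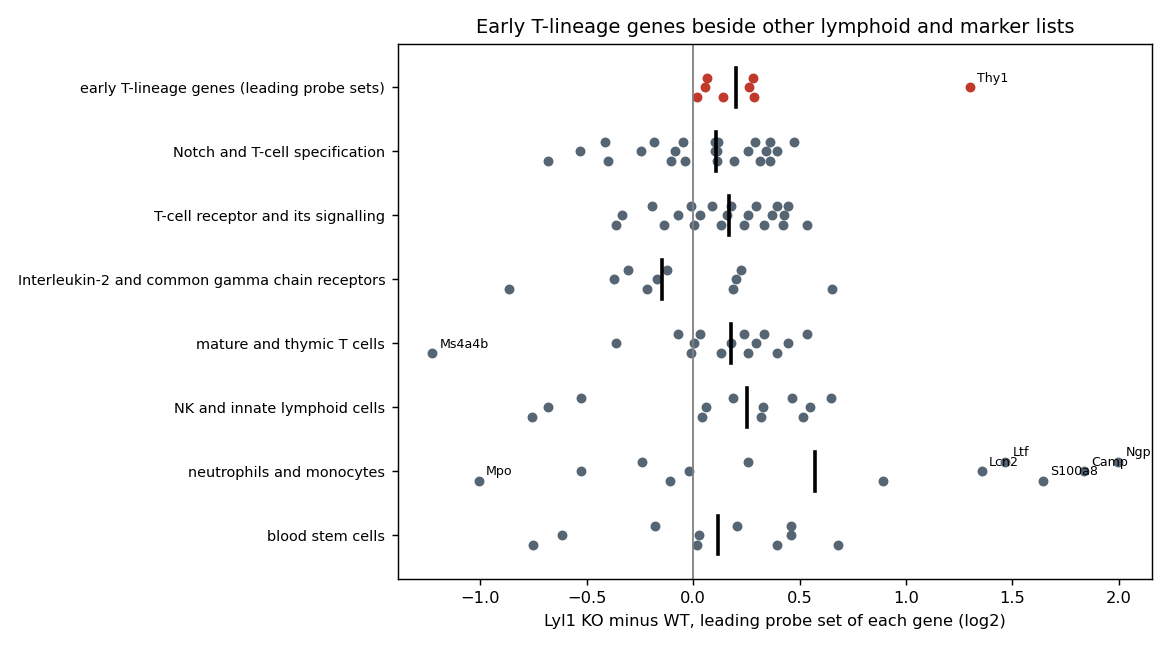
Lyl1 KO minus WT (log2) of the leading probe set of each gene, for the 8 early T-lineage genes (red) and for 7 other lists (grey), with black bars at each list's median. Thy1 stands at 1.30 away from the rest of its list, and the neutrophil genes Ngp, Camp, S100a8, Ltf and Lcn2 lie at 1.36 or above while Mpo of the same list is at −1.01.

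The genes whose profile over the 4 arrays lay nearest to that of Thy1 were sought among 10738 genes above the median of all probe-set means. RIKEN clones and predicted genes were skipped. The measure was the Euclidean distance after each probe set's own mean had been subtracted. The nearest 5 were Chil3, a chitinase-like protein of myeloid cells (distance 0.27), the troponin gene Tnni1 (0.29), the kinesin gene Kifc3 (0.31), the kinase-like gene Camkv (0.31) and S100a8 (0.36). Chil3 was at 8.60 and 8.49 in the libraries labelled Lyl1 KO, against 7.51 and 6.97 in WT. All 5 were higher in both libraries labelled Lyl1 KO, as nearness to Thy1 requires, and none passed over all probe sets in limma. With only 4 arrays, such nearness is a description.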

How the data were processed

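Amplified RNA of sorted LMPPs, labelled with biotin, was measured on 4 arrays, per the labels' protocols. The authors deposited log2 values; RMA is the only tool in the submitters' processing notes. Its version, and whether further arrays were normalized together with these, is not stated in the sources used here. They were used as deposited.

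Of 45037 probe sets, the platform annotation gives 34945 a single gene symbol, 932 several and lists none for 9160. Every probe set was tested in limma 3.58.1 (R 4.3.3; lmFit, eBayes, two-sided, Benjamini-Hochberg over all probe sets, threshold 0.05), with no filter, so that each member had a test. The method was tested on simulated data. A gene's leading probe set has the highest mean over the 4 arrays. All members were named. From each T-cell list, the 3 genes with the smallest unadjusted p were named where none passed, and the 5 genes nearest to Thy1. Other genes given as cell markers were chosen after their values were seen.

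The members and lists were chosen with earlier results of these data known. Replicates with the same number tended to deviate in opposite directions (r = −0.24 over probe sets). This r compares only the difference between the replicates of each genotype, and the library in doubt enters it. It therefore cannot decide whether the numbers pair the arrays. Alternatives were filters at the median and the 70th percentile, 1 probe set or the mean per gene, quantile normalization, median centring, trended or robust priors, array weights, a threshold of 0.10, replicate blocks and leaving out each array. Under the 70th percentile filter no member was tested.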

Additional observations from a re-analysis of the deposited data

How the results depend on the processing

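Of 17 alternatives, 16 called 0 member probe sets, as did the reported fit. The exception, added after the data had been seen, was 1 probe set per gene above the median without the library labelled Lyl1 KO replicate 1, where 1 (Thy1, 1.14) passed. That library was left out, so the call rests on the library whose Lyl1 level goes against its label. The median difference was 0.28 over the 4 members above the median, with every probe set or 1 per gene, and 0.34 in the added fit without the library labelled Lyl1 KO replicate 1. Leaving out 1 array at a time moved it between 0.070 and 0.276, the highest without that same library. With the replicate block, 0 members passed and the median stayed at 0.13; over all probe sets 0 passed, against 2 without it. Over all probe sets, calls higher and lower numbered 3 and 6 with quantile normalization and also at a threshold of 0.10, 4 and 8 with array weights and 1 and 0 without the library labelled Lyl1 KO replicate 1, against 1 and 1 in the reported fit. Over the 11196 genes of the added fits they numbered 441 and 1211 without that library and 10 and 12 without the library labelled Lyl1 KO replicate 2. A crossed replicate block, which pairs unlike numbers, called 0 members.

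No member was called in the reported fit, so any sign change had to fall on a member that was not called. Signs turned in 22 of 180 values, and the cause was not tested. With quantile normalization the values were −0.021 and −0.047 for Bcl11b (1450339_a_at, 1452966_at), −0.107 for Cd3g, −0.046 for Il2ra (1420692_at) and −0.078 for Ptcra. With median centring they were −0.0080 and −0.00034 for these Bcl11b probe sets, −0.058 for Cd3g and −0.019 for Ptcra. Leaving out 1 array at a time gave ranges of −0.16 to 0.43 (1435227_at), −0.0073 to 0.56 (1438784_at), −0.068 to 0.202 (1450339_a_at) and −0.028 to 0.178 (1452966_at) for Bcl11b, −0.19 to 0.23 for Cd3g, −0.030 to 0.230 for Il2ra (1420692_at), −0.104 to 0.028 for Lef1 (1421299_a_at) and −0.16 to 0.28 for Ptcra. Thy1, Cd3d, Cd3e, the leading Lef1 and the leading Il2ra probe set kept a positive sign in all alternatives in which they were tested. Of the 13 probe sets, 9 have a mean below the median of all probe sets, which limits what they can show.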
